A study of Mus musculus with 10 samples.

Results

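The 10 genes described here encode proteins of the immune checkpoint system, and they were taken by name from a table of 21959 mouse genes measured in 10 tumors. Of the 10, 4 encode B7-type molecules that are displayed by tumor or myeloid cells and are called ligands here: Cd274 (PD-L1), Pdcd1lg2 (PD-L2), Cd276 (B7-H3) and Vsir (VISTA). The other 6 encode receptors carried by T cells and by some other leukocytes: Pdcd1 (PD-1), Ctla4 (CTLA-4), Lag3 (LAG-3), Havcr2 (TIM-3), Tigit (TIGIT) and Icos (ICOS). All 10 passed the filter on low counts, as did 13517 genes of the table. The question was whether the level of any of them differed between tumors of running and non-running mice, and how they varied from tumor to tumor.

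Checkpoint receptors set how strongly a T cell responds after its antigen receptor has been engaged. PD-1 recruits phosphatases when it binds PD-L1 or PD-L2, CTLA-4 competes with the activating receptor CD28 for CD80 and CD86, and LAG-3, TIM-3 and TIGIT add further inhibitory signals, whereas ICOS is an activating relative of CD28. In tumors, PD-L1 is known to be induced by interferon-gamma, PD-L2 is found mainly on macrophages and dendritic cells, B7-H3 is often carried by tumor and stromal cells, and VISTA is abundant on myeloid cells.

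The tumors were grown in female BALB/c mice, a few weeks old, from cells of the mammary carcinoma line 4T1, which are widely used to model triple-negative breast tumors and were injected under the skin of the abdomen. The 5 mice of the exercise group (E1 to E5) could run on a wheel at will, and the 5 mice of the non-exercise group (NE1 to NE5) were kept under normal husbandry. Both groups carried the same cell line, no gene was edited, and 1 tumor per mouse was taken at day 21. Whole tumor pieces were sequenced, so fewer cells of a type and less RNA per cell cannot be told apart in any value below.

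Cd274 and Pdcd1lg2 are neighbours on chromosome 19 of the mouse genome (GRCm38, GENCODE annotation): Cd274 lies at chr19:29367455-29388095 and Pdcd1lg2 at chr19:29410919-29471161, both on the plus strand and 22823 bases apart. Pdcd1 lies on the minus strand at chr1:94038305-94052553. The 250 bases before the RefSeq start of these 3 genes (GRCm38.p6) are shown because they belong to PD-1 and its ligands, and because the neighbouring ligand genes differed widely in how far their levels spread. Each is written from 5′ to 3′ on the strand of its gene, with matches to the GC box GGGCGG and to GGAAA, the core bound by NFAT factors, in capitals on either strand. The windows span chr19:29367188-29367437, chr19:29410669-29410918 and chr1:94052554-94052803.
Cd274: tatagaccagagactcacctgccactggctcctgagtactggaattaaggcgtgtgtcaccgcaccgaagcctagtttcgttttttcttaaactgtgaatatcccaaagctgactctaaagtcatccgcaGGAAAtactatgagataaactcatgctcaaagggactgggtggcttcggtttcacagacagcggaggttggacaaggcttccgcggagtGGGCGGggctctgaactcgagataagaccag
Pdcd1lg2: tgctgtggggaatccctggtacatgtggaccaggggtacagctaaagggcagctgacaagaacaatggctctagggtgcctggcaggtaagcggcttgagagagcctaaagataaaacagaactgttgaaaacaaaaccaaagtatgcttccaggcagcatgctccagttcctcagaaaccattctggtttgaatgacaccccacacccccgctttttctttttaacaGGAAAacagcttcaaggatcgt
Pdcd1: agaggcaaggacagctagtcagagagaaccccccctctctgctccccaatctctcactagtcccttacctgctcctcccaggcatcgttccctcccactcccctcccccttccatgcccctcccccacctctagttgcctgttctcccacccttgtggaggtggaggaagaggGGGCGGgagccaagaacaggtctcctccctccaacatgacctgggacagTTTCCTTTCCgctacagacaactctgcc

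The Cd274 window held 1 GC box that began 31 bases before the gene start and 1 NFAT core at 120 bases. In the Pdcd1lg2 window there was 1 NFAT core at 22 bases and no GC box. The Pdcd1 window held 1 GC box at 77 bases and 2 adjoining NFAT cores at 28 and 23 bases. A window was listed for 8 of the 10 genes, of which 4 held a GC box and 6 an NFAT core, while 32.7% and 55.6% of 32851 mouse promoter windows of this length did. The STAT-type palindrome TTCNNNGAA and an IRF-type repeat of GAAA, searched on both strands, occurred in 0 of the 8 and in 7.02% and 2.98% of all windows. The motifs do not share bases in these matches, and a match or its absence says only whether the letters stand in the window.

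Each tumor had between 15045613 (E5) and 23092251 (NE1) counted reads. In the shallowest tumor 3 reads correspond to 0.199 CPM (reads of a gene scaled to the total of the tumor). All other CPM values below were also scaled by the TMM normalization factor of the tumor. A gene was called where edgeR's quasi-likelihood test gave a 2-fold or larger change with a false discovery rate (FDR) of 0.05 or less, which held for 0 of 13517, and the smallest FDR was 0.897. An unadjusted p of 0.05 or less was reached by 657 genes, and DESeq2 and limma-trend also called 0. Marker scores, each the mean log2(CPM + 1) of a list of marker genes, set several tumors apart. NE1 had the lowest score for T cells (2.36, others 2.97 to 3.96), macrophages or monocytes (5.82, others 6.79 to 7.75), fibroblasts (4.87, others 6.26 to 8.60) and skeletal muscle (0.616, others 3.62 to 11.4). NE4 had the highest skeletal muscle score (11.4, next 8.57 in E2), and E5 the highest neutrophil score (5.06, others 1.31 to 2.56) and fibroblast score (8.60, next 7.57 in NE4). Against the labelled mammary carcinoma, epithelial markers were near absent: Epcam had a mean of 0.58 FPKM and Krt8 of 0.226 FPKM over the 10 tumors, and 3 of 6 such markers passed the filter, with Cdh1 highest at 2.44 FPKM. Leukocyte and stromal markers were plain, with mean FPKM of 5.22 for Cd3d, 9.79 for Cd8a, 35.8 for Csf1r, 273 for C1qa and 143 for Col1a1. Acta1, a skeletal muscle actin, ranged from 1.07 to 4023 FPKM.

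**Figure D1:**
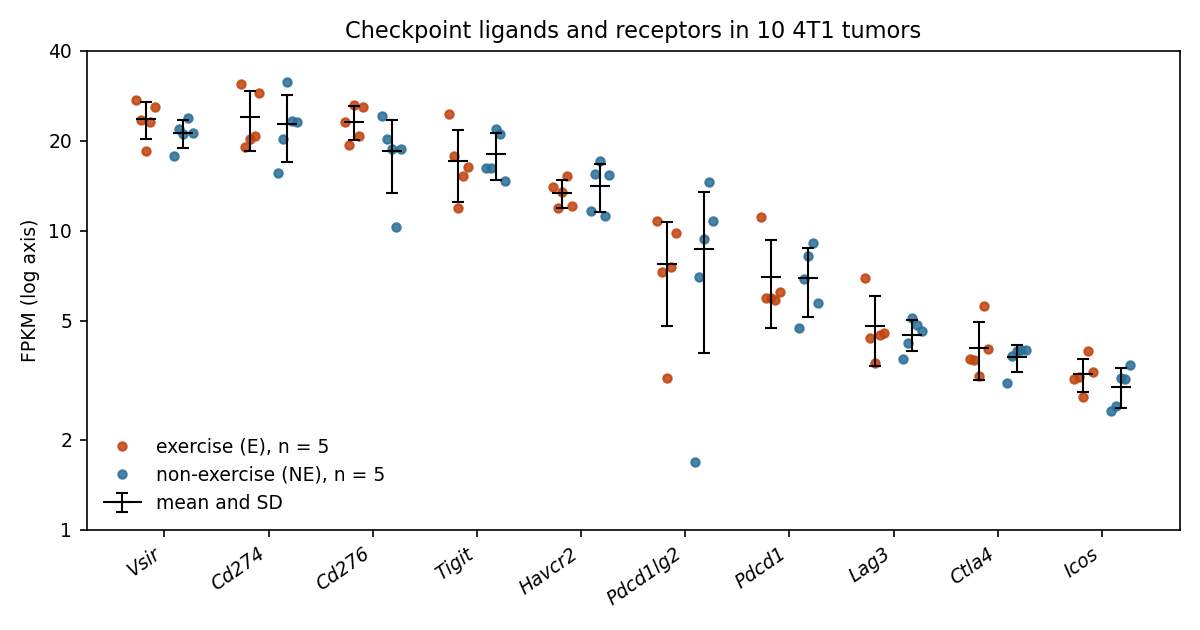
FPKM of the 10 checkpoint genes (log axis) in 5 exercise and 5 non-exercise tumors. Points are tumors, with the mean and SD of each group in black, and genes run from the highest to the lowest median. The groups overlap for every gene, and Pdcd1lg2 has the widest spread, from 1.68 to 14.6 FPKM.

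Cd274, the main ligand of PD-1, was among the higher members, with a median of 21.9 FPKM (fragments per kilobase, scaled to the depth of the tumor, on which genes of different length can be compared). Its level was 30.8, 19.1, 20.3, 20.7 and 28.8 FPKM in E1 to E5 and 15.6, 20.3, 31.5, 23.3 and 23.1 FPKM in NE1 to NE5. The tumors NE3, E1 and E5 were high and NE1 was low, a 2.02-fold range that ran across both groups.

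Pdcd1lg2, the second PD-1 ligand, was 10.8, 7.27, 3.22, 7.59 and 9.83 FPKM in E1 to E5. In NE1 to NE5 it was 1.68, 6.98, 9.38, 14.6 and 10.8 FPKM. The lowest and the highest tumor both belonged to the non-exercise group and differed 8.67-fold. They rested on 76 reads in NE1 and 655 in NE4, and the 95% Wilson intervals, which cover counting error only, were 1.34 to 2.10 FPKM and 13.5 to 15.7 FPKM. The coefficient of variation over the 10 tumors was 45.9%, whereas counting alone would give 5.54%, and 10.1% of all genes tested varied more. The ratio of Pdcd1lg2 to Cd274 in FPKM ran from 0.108 in NE1 to 0.626 in NE4, so Cd274 had the higher FPKM in all 10 tumors.

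Cd276 encodes B7-H3 and lies on the minus strand at chr9:58524298-58555437. It measured 23.1, 19.4, 26.3, 20.8 and 25.9 FPKM in the exercise tumors and 24.2, 20.3, 18.7, 10.3 and 18.7 FPKM in the non-exercise tumors. Its low point was NE4, the tumor in which Pdcd1lg2 was highest. Vsir encodes VISTA and lies on the plus strand at chr10:60346851-60372684, inside the span of Cdh23 on the other strand. Its level was 27.4, 23.5, 18.5, 23.1 and 25.9 FPKM in E1 to E5 and 17.7, 22.0, 21.1, 23.8 and 21.3 FPKM in NE1 to NE5. With a 1.55-fold range it was the steadiest of the ligands, and Cdh23 itself had at most 0.979 FPKM.

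Pdcd1, the gene of PD-1, was 11.1 FPKM in E1 and 5.94, 5.95, 5.86 and 6.22 FPKM in E2 to E5. In NE1 to NE5 it was 4.73, 6.91, 8.24, 9.13 and 5.73 FPKM. E1 stood well above the other 4 exercise tumors and every non-exercise tumor, and the groups overlapped within a 2.34-fold range.

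Lag3, which binds MHC class II and lies at chr6:124904361-124911705 on the minus strand, showed a like profile. Its values were 6.96, 4.37, 3.61, 4.47 and 4.54 FPKM in E1 to E5 and 3.74, 4.21, 5.09, 4.84 and 4.61 FPKM in NE1 to NE5. Tigit, a receptor for nectin-type ligands at chr16:43648867-43664146 on the minus strand, was 24.5, 17.8, 11.9, 15.2 and 16.3 FPKM in the exercise tumors and 16.2, 16.2, 21.9, 21.1 and 14.7 FPKM in the non-exercise tumors. E1 was again the highest tumor for both genes, and E3 the lowest.

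Ctla4 and Icos, homologs of Cd28, lie in tandem on the plus strand of chromosome 1, at chr1:60887000-60915832 and chr1:60977927-61000320, and 62094 bases apart. Ctla4 was 3.72, 3.71, 3.27, 5.60 and 4.02 FPKM in E1 to E5 and 3.09, 3.81, 3.97, 4.00 and 3.99 FPKM in NE1 to NE5. Icos was 3.19, 3.24, 2.79, 3.96 and 3.37 FPKM in E1 to E5 and 2.49, 2.59, 3.22, 3.20 and 3.56 FPKM in NE1 to NE5. Both were highest in E4 and lowest in NE1, with the groups overlapping. Havcr2 encodes TIM-3, which T cells share with macrophages and dendritic cells, and lies on the plus strand at chr11:46454935-46481255. It was 14.0, 11.9, 13.4, 15.3 and 12.1 FPKM in E1 to E5 and 11.6, 15.5, 17.1, 11.2 and 15.4 FPKM in NE1 to NE5, the narrowest range of the 10 genes (1.52-fold).

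By median FPKM the order was Vsir (22.5), Cd274 (21.9), Cd276 (20.5), Tigit (16.3), Havcr2 (13.7), Pdcd1lg2 (8.48), Pdcd1 (6.09), Lag3 (4.51), Ctla4 (3.89) and Icos (3.21). The first 3 neighbours were not in a fixed order, since Vsir exceeded Cd274 in 5 of 10 tumors and Cd274 exceeded Cd276 in 6. Pdcd1 exceeded Lag3, and Ctla4 exceeded Icos, in 10 of 10 tumors. No pair of neighbours in this order had ranges that were apart. The spread of 9 of the 10 genes was above the median coefficient of variation of all genes tested (13.5%), Vsir being the exception at 13.3%.

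No checkpoint gene was called between exercise and non-exercise tumors (0 of 10, against 0% of all genes tested), by edgeR, DESeq2 or limma-trend alike, and 0 of 10 had an unadjusted p of at most 0.05 in any of these 3 tests. Groups that do not overlap were seen for 0 of the 10 genes and for 0.695% of all genes tested. Cd276 had the largest fitted difference, with a mean of 23.1 ± 3.05 FPKM in exercise and 18.4 ± 5.08 FPKM in non-exercise tumors (SD, n = 5 each). Its log2 fold change was 0.30 (SE 0.18, edgeR FDR 0.897), the exact permutation p over all 252 splits of the tumors was 0.143 (two-sided), and the exercise tumor was the higher in 21 of 25 pairings. It depended on 2 tumors of the non-exercise group: without NE4 its log2 fold change was 0.16, and without NE1 it was 0.42 with an edgeR unadjusted p of 0.0414 and FDR of 0.505. With the skeletal muscle score as a covariate it was 0.37, with an edgeR unadjusted p of 0.00442 and FDR of 0.487.

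**Figure D2:**
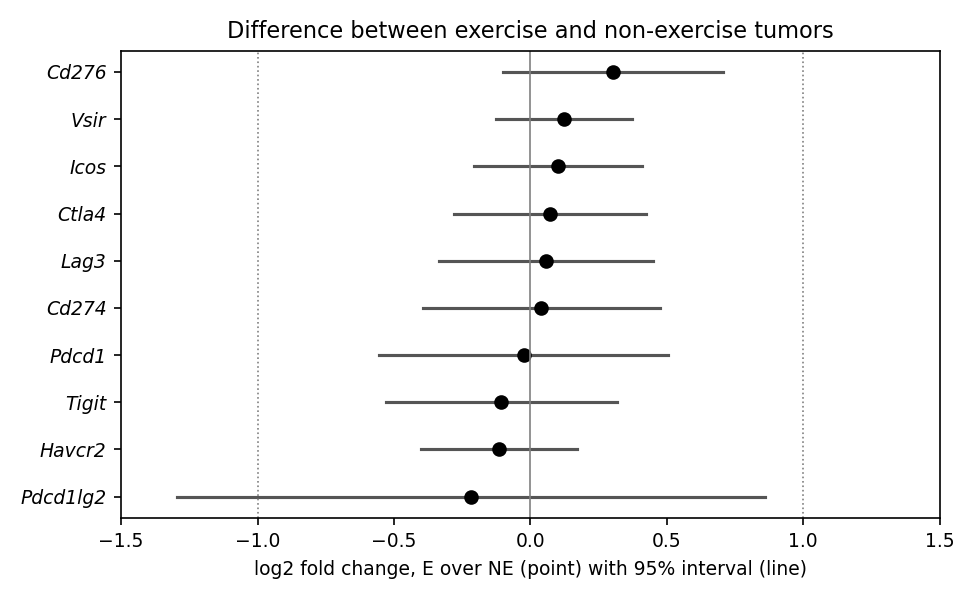
Log2 fold change of exercise over non-exercise tumors (point) with its 95% interval (line) from edgeR, 5 tumors per group. The dotted lines mark a fold change of 2 in each direction, and every interval includes 0. Only that of Pdcd1lg2 reaches past a dotted line.

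The intervals show which differences these tumors could have hidden. For Cd274, the fold of exercise over non-exercise was 1.03 with a 95% interval of 0.760 to 1.39, and for Pdcd1 it was 0.983 (0.680 to 1.42). That of Vsir was 1.09 (0.917 to 1.29) and that of Havcr2 0.923 (0.757 to 1.12), so for these genes a change of 2-fold lies outside the interval. Pdcd1lg2 was far less certain, at 0.860 with an interval of 0.408 to 1.81, and its log2 fold change of -0.22 (SE 0.49) moved to -0.47 without NE1 and to 0.08 without NE4. The remaining log2 fold changes were 0.07 for Ctla4, 0.06 for Lag3, -0.11 for Tigit and 0.10 for Icos, with SEs between 0.14 and 0.19. E1 carried the upper end of the exercise group: without it, the log2 fold change of Pdcd1 went from -0.03 to -0.24, that of Lag3 from 0.06 to -0.11 and that of Tigit from -0.11 to -0.26, and none was called. That of Tigit was -0.0055 without E3, and that of Icos was 0.03 without E4 and 0.17 without NE5.

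Over the 10 tumors the T cell score ran from 2.36 to 3.96 and the macrophage or monocyte score from 5.82 to 7.75. The T cell score was 3.25 in exercise and 3.29 in non-exercise tumors on average (exact permutation p = 0.905, two-sided), and the macrophage or monocyte score was 7.17 and 6.90 (exact permutation p = 0.524). Each gene's slope on a score was fitted with group as a second term. The fit covered all genes, so that the genes here can be read against the share of all genes that rose. With the T cell score, 4 of 10 checkpoint genes rose at an FDR of at most 0.05, while 9.96% of all genes tested did. These were Pdcd1lg2 (2.02 log2 units per unit of score, SE 0.34, edgeR FDR 0.0061), Pdcd1 (0.73, SE 0.20, edgeR FDR 0.0374), Cd274 (0.63, SE 0.17, edgeR FDR 0.0360) and Vsir (0.36, SE 0.09, edgeR FDR 0.0321). Thus 3 of the 4 ligands rose and 1 of the 6 receptors. Tigit (0.46), Lag3 (0.43), Icos (0.29), Ctla4 (0.28) and Havcr2 (0.13) had positive slopes that did not pass, with edgeR FDRs of 0.142 to 0.682. The slope of Cd276 was the only negative one over all 10 tumors, at -0.52 (SE 0.17, edgeR FDR 0.0751).

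**Figure D3:**
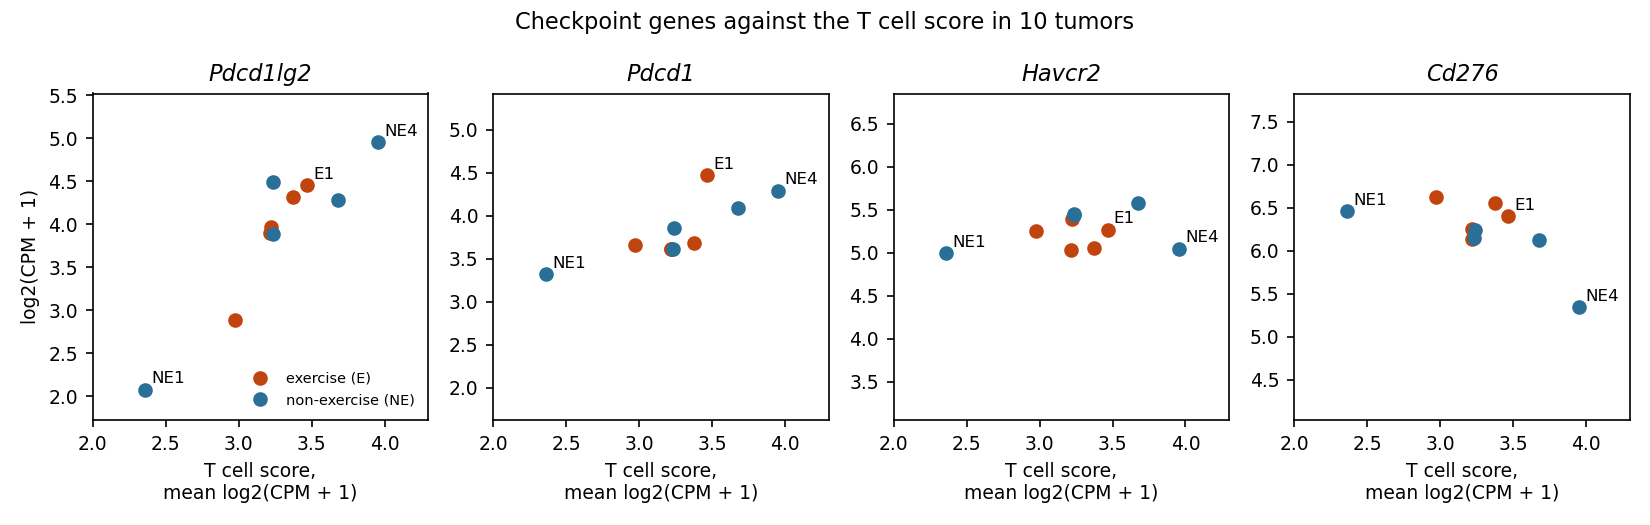
Log2(CPM + 1) of 4 checkpoint genes against the T cell score in 10 tumors. Every panel spans the same number of log2 units. Pdcd1lg2 climbs steeply from NE1 to NE4, Pdcd1 less so with E1 above the others, Havcr2 stays level and Cd276 is lowest in NE4.

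These calls leaned on the tumor with the fewest leukocyte markers. Without NE1, 0 of the 10 genes rose with the T cell score, against 1.42% of all genes; the slope of Pdcd1lg2 was then 1.51 (edgeR FDR 0.0803) and that of Pdcd1 1.01 (edgeR FDR 0.0889). Without E4 there was 1, against 8.42% of all genes. Without E2, E3, NE2 or NE3 there were 2, against 7.71% to 9.996% of all genes, and without NE4 there were 2, against 3.49%. Pdcd1lg2 was called in 9 of the 10 fits that left out a tumor, Vsir in 6, Cd274 in 5 and Pdcd1 in 2. The slopes of these 4 genes were positive in all 10. Cd276 passed the same FDR as a fall in 1 of the 10 fits, and its slopes lay between -0.71 and -0.30. Among the receptors that did not pass, the slope of Havcr2 turned to -0.29 without NE1 and was 0.35 without NE4, that of Tigit became 1.05 without NE1 (edgeR FDR 0.0577) and that of Lag3 0.67 (edgeR FDR 0.184).

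With the macrophage or monocyte score, 2 of 10 genes rose, Pdcd1lg2 (1.85, SE 0.29, edgeR FDR 0.00409) and Vsir (0.32, SE 0.08, edgeR FDR 0.0377), against 7.07% of all genes. Cd274 missed the threshold at 0.55 (SE 0.15, edgeR FDR 0.0538). Without NE1 the count was 0, against 0.748% of all genes, and without E2, E3, E4, E5, NE2, NE4 or NE5 it was 1, near the 5.40% to 6.64% of all genes in those fits. The T cell and macrophage scores were both lowest in NE1, as were those of dendritic cells, NK cells, fibroblasts and skeletal muscle. Their shares in these slopes cannot be told apart. Pearson r with the skeletal muscle score was 0.73 for Pdcd1lg2, 0.70 for Pdcd1, 0.67 for Vsir, -0.71 for Cd276 and -0.04 for Havcr2. Without NE1 and NE4 these were 0.07, 0.37, 0.31, -0.33 and -0.25. With the fibroblast score 0 of 10 genes rose, against 3.99% of all genes, and without E1 there were 2, against 5.41%.

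Cd274 is a textbook target of interferon-gamma, and a score of 12 interferon-gamma response genes, such as Irf1 and Gbp2, was used in the same way. None of the 10 genes passed (0 of 10, edgeR), and of all genes tested 1 did (0.0074%). The unadjusted p was at most 0.05 for 5 of the 10, all with positive slopes: Pdcd1 (1.33, SE 0.31), Cd274 (1.01, SE 0.28), Tigit (0.89, SE 0.29), Lag3 (0.87, SE 0.26) and Pdcd1lg2 (2.44, SE 1.02). Of all genes, 4.48% had such a p with a positive slope. With a tumor left out, the slope of Pdcd1lg2 lay between 0.95 (without NE1) and 3.43 (without NE3). That of Tigit lay between 0.67 (without E1) and 1.39 (without NE1) and that of Lag3 between 0.56 (without E1) and 1.11 (without NE3). Those of Cd274 and Pdcd1 lay between 0.89 and 1.24 and between 1.04 and 1.68. Pearson r of Cd274 with the score was 0.73, and 0.36 without NE1 and NE3. For Pdcd1, Tigit, Lag3 and Pdcd1lg2 r was 0.82, 0.76, 0.75 and 0.69, and without NE1 and NE3 0.84, 0.82, 0.80 and 0.64. By p, Pdcd1 ranked 61 and Cd274 134 of 13517 genes, with edgeR FDRs of 0.357 and 0.487. The score itself varied little, from 7.38 in NE1 to 8.25 in NE3.

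Receptor reads were next set against T cell reads, as the CPM of each receptor over the summed CPM of Cd3d, Cd3e and Cd3g, the CD3 chains of the T cell receptor complex. That sum ran from 19.4 CPM in NE1 to 51.9 CPM in NE4. Pdcd1 kept the most even ratio, with 0.393 ± 0.0608 in exercise and 0.383 ± 0.0535 in non-exercise tumors (SD, n = 5 each) and a coefficient of variation of 14.0%, compared with 27.7% for its FPKM. Tumor by tumor the ratio was 0.492, 0.409, 0.367, 0.361 and 0.338 in E1 to E5 and 0.466, 0.407, 0.334, 0.353 and 0.356 in NE1 to NE5, so the 2 highest tumors were E1 and NE1. For the other 5 receptors the ratio varied more than the FPKM, with coefficients of 27.5% against 17.2% for Ctla4, 25.5% against 14.7% for Havcr2, 25.5% against 14.1% for Icos, 24.7% against 21.6% for Tigit and 20.46% against 20.03% for Lag3. Their ratios were lowest in NE4 for Ctla4, Lag3, Havcr2 and Icos, the tumor with the largest CD3 sum. All 6 log2 ratios ran against the log2 CD3 sum, their own denominator. Pearson r was -0.40 for Pdcd1, -0.84 for Ctla4, -0.77 for Lag3, -0.86 for Havcr2, -0.67 for Tigit and -0.87 for Icos. The ratios are therefore not to be read as receptor level per T cell, and the share of the denominator was not tested. Between the groups the log2 differences of the 6 ratios lay between -0.06 (Tigit) and 0.17 (Icos), and the exact permutation p-values (two-sided, not adjusted) between 0.484 and 0.889. That of Icos was 0.06 without NE4 and 0.31 without NE1.

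**Figure D4:**
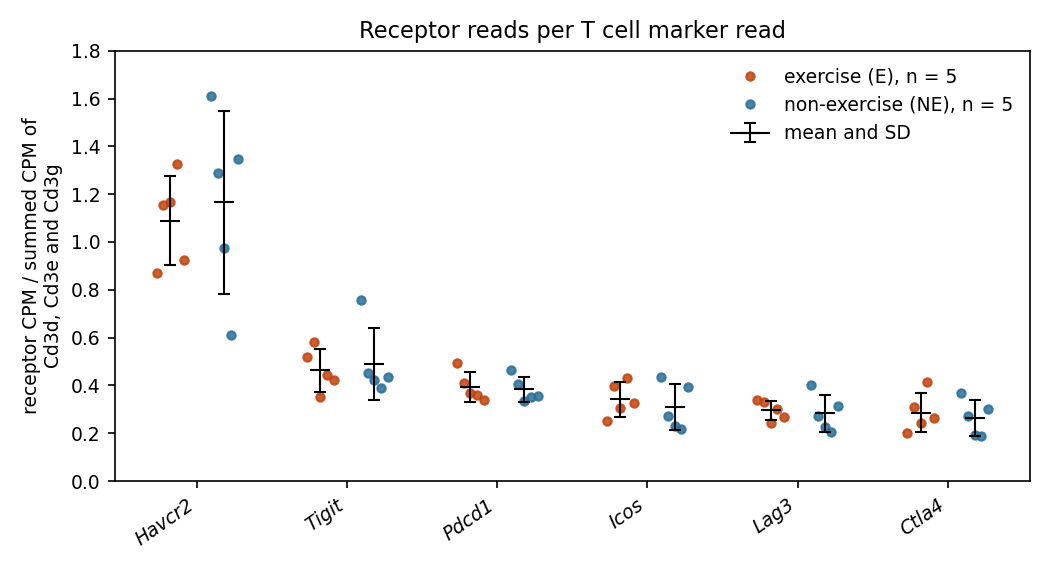
Ratio of receptor CPM to the summed CPM of Cd3d, Cd3e and Cd3g in 5 exercise and 5 non-exercise tumors, with the mean and SD of each group. The groups overlap for all 6 receptors, and NE1 has the highest ratio for Havcr2 (1.61), Tigit (0.757), Lag3 (0.402) and Icos (0.435).

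Across the 10 tumors the genes fell into sets of like profile, given here as correlations of log2(CPM + 1) with no test, since all pairs share the same libraries. Pearson r was 0.87 for Pdcd1 and Lag3, 0.84 for Lag3 and Tigit and 0.82 for Pdcd1 and Tigit. By rank (Spearman rho) these pairs had 0.67, 0.67 and 0.71, below Ctla4 and Icos (0.89) and Pdcd1lg2 and Lag3 (0.85). Leaving out E1, the tumor highest for Pdcd1, Lag3 and Tigit, gave Pearson r of 0.77, 0.78 and 0.73. Pdcd1lg2 and Lag3 then had 0.91. The neighbours Ctla4 and Icos had r = 0.83, and between 0.76 and 0.92 with any 1 tumor left out. The 15 receptor pairs all had r above 0, with a median of 0.26. Most of these values were low, and without NE1 10 of the 15 were above 0, with a median of 0.07. Among ligands, Pdcd1lg2 and Vsir had r = 0.85 and the neighbours Cd274 and Pdcd1lg2 0.74, which became 0.73 and 0.53 without NE1. Cd276 ran against the rest, with a positive r for 1 of its 9 pairs and the lowest value, -0.59, with Pdcd1lg2.

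**Figure D5:**
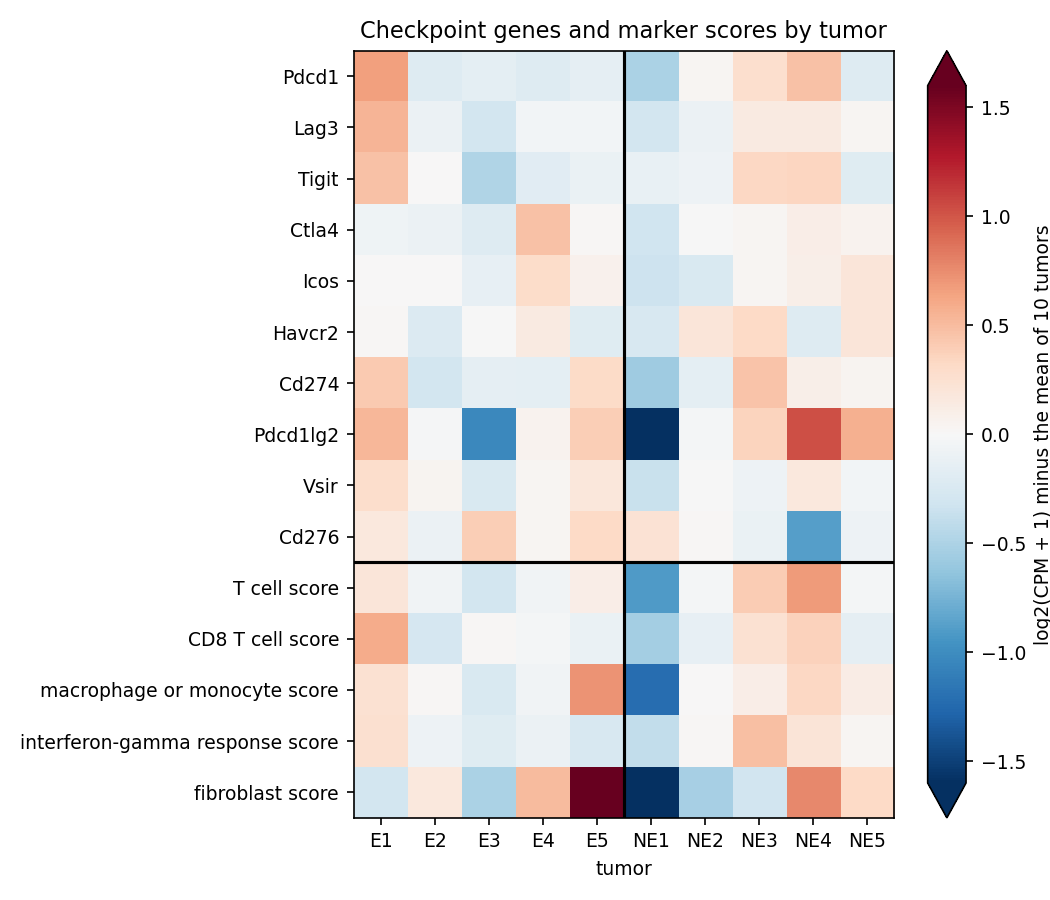
Log2(CPM + 1) of the 10 checkpoint genes and 5 marker scores in each tumor, minus the mean over the 10 tumors (color, saturated at 1.6 in either direction). Pdcd1, Lag3 and Tigit are high in E1, Ctla4 and Icos in E4, and most rows are low in NE1, while Cd276 is low in NE4.

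The genes whose profile was most like that of each member, by Pearson r over 10 tumors among 13517 genes, were of several kinds. For Pdcd1lg2 they were Adgre1 (F4/80, a macrophage surface protein, r = 0.985) and the cytokine gene Il33 (0.984). Pdcd1 came closest to Cd8b1, a chain of the CD8 coreceptor (0.955), and to Slc4a11 (0.936). Icos was nearest to Klra8, a receptor of NK cells (0.954), and to Sytl3 (0.947). Cd274 went with Plekhf2 (0.963) and Spn, the leukocyte sialoprotein CD43 (0.953), and Vsir with Arhgdib (0.977) and Hes6 (0.968). For Lag3 they were Hk3 (0.920) and Glrx (0.911), for Tigit Aen (0.976) and Panx1 (0.957), for Ctla4 Caprin2 (0.941) and Bnip5 (0.936), for Havcr2 Mis12 (0.952) and Mblac2 (0.938), and for Cd276 Ppox (0.980) and Xylt2 (0.979). Each r is the highest or second highest of 13517 over only 10 tumors, and carries no test.

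The partners and signalling genes around the checkpoint proteins were listed separately as 50 genes in 6 lists, of which 45 passed the filter. Between exercise and non-exercise tumors 0 of the 45 were called, and 2 (4.44%) had an unadjusted p of at most 0.05, against 4.86% of all genes tested. These were Lgals9, which encodes galectin-9, a proposed TIM-3 ligand (log2 fold change 0.25, SE 0.10, edgeR FDR 0.897), and Eomes, a transcription factor of cytotoxic lymphocytes (-0.22, SE 0.06, edgeR FDR 0.897). Their median log2 fold change was 0.01, compared with -0.01 for all genes. The most abundant partners were Lgals3 (mean 222 FPKM) and Lgals9 (70.1 FPKM) among those of LAG-3 and TIM-3, Pvr (12.8 FPKM) and Nectin2 (4.45 FPKM) for TIGIT, and Rgmb (12.5 FPKM), a partner of PD-L2, and Selplg (11.2 FPKM), a partner of VISTA, in the B7 and CD28 list. Among the remaining lists, Tnfrsf9 (21.3 FPKM) and Tnfrsf14 (13.7 FPKM) led the tumor necrosis factor receptor family, Cd47 (59.0 FPKM) and Sirpa (48.2 FPKM) the other inhibitory axes, and Csk (42.0 FPKM) and Ptpn6 (31.7 FPKM) signalling below the receptors. All 12 interferon-gamma response genes passed the filter and 0 were called, the most abundant being Gbp2 (306 FPKM) and Igtp (155 FPKM).

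With the T cell score, 17 of the 45 partner and signalling genes rose (37.8%, against 9.96% of all genes) and 2 fell (3.37% of all genes fell). The risers included Selplg (0.93, SE 0.12, edgeR FDR 0.00256), Ptpn6, the SHP-1 phosphatase (0.60, SE 0.09, edgeR FDR 0.00466), Sirpa (0.99, SE 0.16, edgeR FDR 0.00541) and Tnfrsf14 (0.57, SE 0.12, edgeR FDR 0.0152). Genes of T cells themselves were also among them, such as Lck (1.10, edgeR FDR 0.00179), Cd27 (1.27, edgeR FDR 0.0111) and Zap70 (0.63, edgeR FDR 0.0228). Such genes can rise with a T cell score through T cell content alone. Their part in the share of 37.8% was not tested. The genes that fell were Tnfrsf9, which encodes the costimulatory receptor 4-1BB (-0.82, SE 0.16, edgeR FDR 0.0110), and Rgmb (-0.33, SE 0.08, edgeR FDR 0.0249). With the macrophage or monocyte score 14 of the 45 rose (31.1%, against 7.07%) and the same 2 genes fell. Without NE1, an alternative chosen after seeing the data, 3 of 46 that passed the filter rose with the T cell score (1.42% of all genes) and 2 with the macrophage or monocyte score (0.748%), and 0 fell with either, so the falls of Tnfrsf9 and Rgmb were not called.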

How the data were processed

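Bulk mRNA sequencing was done on 10 tumors, 5 exercise and 5 non-exercise, grouped by their labels. The authors mapped paired-end TruSeq reads with Hisat2 2.0 and used Stringtie 1.3.0. The deposited read counts per gene are whole numbers, and the deposited FPKM values equal count over gene length and total count (largest relative deviation 3.78e-14). The study's methods name a rat genome build although the table lists mouse genes, so the table's coordinates were not used and positions come from GRCm38. Whether counting used strand is not given in the sources used here. Vsir overlaps Cdh23 on the other strand, so their reads cannot be told apart without strand. Cd274 and Pdcd1lg2 overlap antisense genes, and Cd276 overlaps an annotated gene on the other strand. Ctla4 and Icos overlap a pseudogene and an annotated gene on their own strand, where strand would not separate the reads. These overlapping genes were not analysed here.

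Counts were tested in edgeR 4.0.16 (R 4.3.3) by the quasi-likelihood test with TMM factors and filterByExpr, which kept 13517 genes, and p-values were adjusted by Benjamini-Hochberg over all of them. Scores are the mean log2(CPM + 1) of marker genes, with CPM scaled by the TMM factors. The T cell score used 8 of its 9 genes. Slopes on a score were fitted with group as a term. The fits were tested on simulated data. Exact permutation tests went through all splits of the tumors in Python 3.11.15, and the Wilson intervals used scipy 1.17.1. Alternatives used DESeq2 1.42.0, limma 3.58.1 on log2(FPKM + 1) or log2(FPKM + 0.1), other filters, covariates and left-out tumors. TMM moved the group difference of all genes by 0.03 on the log2 scale. All 10 genes were named, with the 2 most alike genes of each, and of the partner lists the 2 of highest mean FPKM and those with an unadjusted p of at most 0.05. The partner genes named for their slopes were chosen after their values were seen. The genes and lists were chosen with earlier results of these data known. Each tumor came from its own mouse.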

Additional observations from a re-analysis of the deposited data

Results flagged for a closer look

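In 32 groups of 5 values (the FPKM of 10 genes and the 6 receptor ratios, in each group of tumors), 4 held a tumor far from the other 4 by Dixon's test, where chance alone would give about 1.6. Pdcd1 was 11.1 FPKM in E1 and 5.86 to 6.22 FPKM in the other exercise tumors. Lag3 was 6.96 FPKM in E1 and 3.61 to 4.54 FPKM in the others. E1 also had the highest CD8 T cell score of the 10 tumors (5.14, others 4.00 to 4.92), and the part of CD8 T cells in either value was not tested. Ctla4 was 3.09 FPKM in NE1 and 3.81 to 4.00 FPKM in the other non-exercise tumors. The ratio of Tigit to the summed CD3 genes was 0.757 in NE1 and 0.388 to 0.453 in the others, and NE1 had the smallest CD3 sum (19.4 CPM).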

How the results depend on the processing

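No test, scaling, filter, covariate or left-out tumor tried here gave a called checkpoint gene between the groups, and the smallest FDR of the 10 genes over 19 alternatives was 0.487 (Cd276 with the skeletal muscle score as a covariate). With an unadjusted p of at most 0.05 and a fold change of at least 2, 56 of all genes and 0 of the 10 passed. Of 190 log2 fold changes under alternatives, 19 had the other sign, none above 0.15 in size, and the signs of Cd276, Vsir, Havcr2 and Icos held in all. With the total count as a covariate, Pdcd1 went to 0.15, Ctla4 to -0.0050 and Tigit to 0.032. Pdcd1 was 0.012 without TMM, 0.0027 with limma-trend on log2(FPKM + 1) and 0.0032 on log2(FPKM + 0.1), where Pdcd1lg2 was 0.019. With a tumor left out in turn, the log2 fold change ranged from -0.064 to 0.18 for Cd274, -0.47 to 0.083 for Pdcd1lg2, -0.24 to 0.12 for Pdcd1, -0.071 to 0.13 for Ctla4, -0.11 to 0.14 for Lag3, -0.26 to -0.0055 for Tigit and 0.028 to 0.17 for Icos. Under limma-trend, 1 gene each rose with the T cell, macrophage or monocyte and fibroblast scores, against 5.86%, 5.25% and 4.02% of all genes, and without TMM 1 rose with the macrophage or monocyte score, against 6.44%. With a tumor left out, 0 to 4 rose with the T cell score, 0 to 3 with the macrophage or monocyte score and 0 to 2 with the fibroblast score. The cause was not tested. The log2 difference of the CD3 ratios ranged from -0.049 to 0.11 for Pdcd1, -0.025 to 0.25 for Ctla4, -0.011 to 0.23 for Lag3, -0.26 to 0.095 for Havcr2, -0.15 to 0.11 for Tigit and 0.062 to 0.31 for Icos. The paper speaks of matched pairs, but no label says what a shared number marks. Same-numbered tumors of the groups did not deviate together (r from -0.32 to 0.32), so the numbers were not read as pairs. With a replicate block, 0 genes were called, and Cd276 had a log2 fold change of 0.33 (edgeR FDR 0.871). The 10 genes had at least 76 reads in every tumor. The fewest were those of Pdcd1lg2 in NE1, so counting error weighs most on that value, although NE1 had the most counted reads.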
